A study of Sus scrofa with 11 samples.

Results

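FOSL1, JUNB and MYC are 3 genes for transcription factors that cells use when they are pushed to grow or repair, and their transcripts were followed here in pig heart slices kept in culture. They were found by gene symbol, each on 1 row (ENSSSCG00000012967, ENSSSCG00000013735 and ENSSSCG00000005965), and are 3 of 16319 genes in the table. RNA came from hearts of wild-type Yorkshire pigs aged 3 months, with 11 libraries in 4 groups. The groups were slices labelled as day 0, called uncultured here (3 libraries), and slices after 2 days (2 libraries), 6 days (3 libraries) or 10 days (3 libraries) in culture labelled as stimulated. The labels do not say what the stimulus was, and they name no genotype or treatment that separates the groups other than time in stimulated culture. They do not say whether replicates came from separate animals, so p-values measure only the spread between these samples.

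FOSL1 encodes FRA-1, a FOS family protein, and JUNB encodes a JUN family protein. FOS proteins pair with JUN proteins through a leucine zipper, and the pair is the factor AP-1, which binds DNA next to genes for proteases, adhesion and cytokines. MYC pairs with MAX and raises transcription of genes for ribosome building, metabolism and cell growth. All of these genes respond to growth factors, stress and wounding, and in the adult heart they are known as part of the early response to injury and load. FOS and EGR1 are the usual first wave of this response, while FOSL1 is known as a later and longer-lasting member of the FOS family.

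Reads behind the table could be recovered as whole numbers from the steps between FPKM values, and they came to between 11695060 and 16773577 reads per library. FPKM is the number of fragments per kilobase of gene, scaled to the fragments of the library, so levels of different genes can be compared per length. In 2 libraries more genes were listed at 0 than elsewhere: 4536 in day 0 replicate 2 and 4017 in day 2 replicate 1, where the other libraries had 1310 to 2331. These libraries stood apart, and the differences of FOSL1, JUNB and MYC from uncultured slices are given with and without them. Every fit that leaves out a day 2 library keeps only the other for that day, so day 2 adds no spread there. Markers of heart muscle cells (6 of 10 listed genes in the table, all above 0 in every library) summed to between 23249.6 and 46283.9 FPKM in uncultured slices, 905 and 5025 after 2 days, 5079 and 11804 after 6 days, and 8.36 and 18.4 after 10 days. In bulk tissue, fewer cells of a type and less RNA per cell cannot be told apart.

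FOSL1 was close to silent in uncultured slices and abundant in cultured ones. It stood at 0.707, 0.446 and 0.206 FPKM in the day 0 libraries, from 35, 20 and 12 reads. It stood at 80.2 and 59.4 FPKM after 2 days, from 4635 and 2719 reads. At day 6 it stood at 32.6, 39.4 and 12.7 FPKM, and after 10 days at 11.98, 13.1 and 15.4 FPKM. Every cultured library was above every day 0 library. The day 2 libraries were the highest, and day 6 replicate 3 lay among the day 10 libraries.

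JUNB had the highest level of the 3 genes in all 11 libraries and was already present before culture. It stood at 51.5, 11.1 and 26.4 FPKM in uncultured slices, and at 205 and 171 FPKM after 2 days. At day 6 it stood at 264, 308 and 228 FPKM, and after 10 days at 231, 261 and 236 FPKM. All 8 cultured libraries were above the day 0 libraries. The day 6 and day 10 libraries overlapped and the day 2 libraries lay below both.

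MYC started between the others and reached its highest values after 6 days. It stood at 17.1, 2.15 and 7.42 FPKM in uncultured slices, and at 60.8 and 85.6 FPKM after 2 days. At day 6 it stood at 101, 138 and 87.2 FPKM, and after 10 days at 28.1, 25.9 and 45.8 FPKM. No pair of groups overlapped for MYC in FPKM, and their order was day 0, day 10, day 2 and day 6 from low to high. With median ratio scaling of the libraries, day 6 (57.5 to 114) overlapped day 2 (58.97 to 72.8). MYC was above FOSL1 in every library except day 2 replicate 1.

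**Figure D1:**
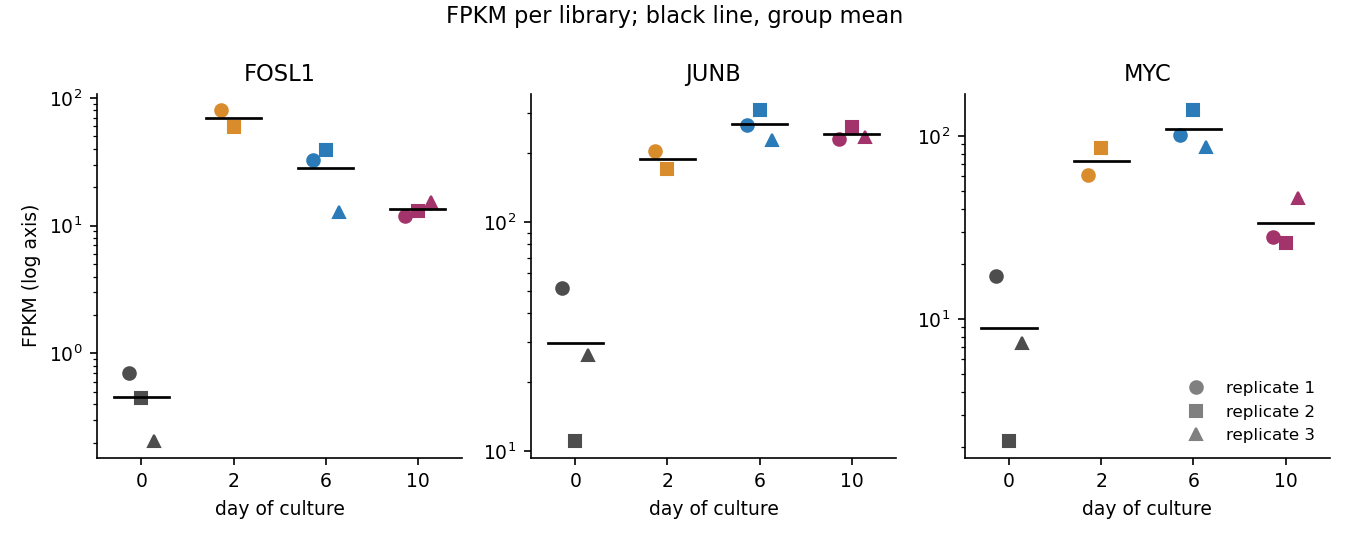
FPKM of FOSL1, JUNB and MYC (log axis, each panel with its own range) in each library by day of culture. Points are libraries, with the replicate number as the symbol, and black lines are group means. All cultured libraries lie above the day 0 libraries, FOSL1 is highest after 2 days, MYC after 6 days, and JUNB stays between 171 and 308 FPKM in culture.

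The rank of each gene within its own library does not depend on library scaling, but it does depend on how many genes are at 0. FOSL1 exceeded 14.2% to 46.4% of all genes in uncultured slices, 90.8% to 93.4% after 2 days, 63.9% to 87.6% after 6 days and 71.8% to 74.6% after 10 days. The 46.4% was day 0 replicate 2, with 4536 genes at 0, and replicates 1 and 3 stood at 22.7% and 14.2%. JUNB exceeded 83.3% to 91.4% of genes in uncultured slices and between 97.0% and 98.4% in every cultured library. By rank, the day 2 libraries of JUNB lay within the range of day 10, and day 6 replicate 3 of FOSL1 lay below all day 10 libraries, unlike by FPKM. MYC exceeded 63.9% to 78.0% in uncultured slices, 91.7% to 93.6% after 2 days, 93.7% to 96.5% after 6 days and 83.8% to 88.3% after 10 days. After 10 days the highest library was 1.77 times the lowest for MYC, 1.13 times for JUNB and 1.28 times for FOSL1, against 7.96, 4.65 and 3.44 times in uncultured slices. For MYC and JUNB the lowest uncultured library was day 0 replicate 2, which stood apart, and without it the levels were 17.1 and 7.42 FPKM for MYC and 51.5 and 26.4 FPKM for JUNB.

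The comparisons with day 0 asked how slices in culture differed from uncultured ones, and all 3 share the same day 0 libraries. Fold changes are differences in log2(FPKM + 1) from a limma fit across the 12625 genes that averaged 1 FPKM or more, so they understate the change of a gene as low as FOSL1 in uncultured slices. A gene was called at an adjusted p under 0.05.

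At day 2 all 3 genes rose. The share of all tested genes called higher was 5.76%, and that called lower was 3.14%. The day 2 libraries of 26.7% of tested genes were all above day 0, as they were for these 3 genes, and the genes described here were chosen with earlier results of these data known. FOSL1 had a mean of 69.8 ± 14.7 FPKM after 2 days (SD, n = 2) and 0.453 ± 0.251 FPKM in uncultured slices (SD, n = 3), for a log2 difference of 5.61 ± 0.55 (SE; adjusted p = 4.89e-04, limma). It ranked 3 among 12625 genes by p and 11 by log2 fold change. JUNB had a mean of 188 ± 24.4 FPKM after 2 days and 29.6 ± 20.4 FPKM in uncultured slices, for a log2 difference of 2.86 ± 0.55 (adjusted p = 0.00856, limma). MYC had a mean of 73.2 ± 17.5 FPKM after 2 days and 8.88 ± 7.57 FPKM in uncultured slices, for a log2 difference of 3.22 ± 0.64 (adjusted p = 0.00990, limma). Leaving out day 2 replicate 1 ended the call of JUNB, at 2.73 on the log2 scale. Leaving out day 2 replicate 2 ended that of MYC, at 2.98. In each of these fits the other day 2 library stood alone, so the spread came from the other groups. With only day 0 and day 2 libraries in the fit, JUNB and MYC also missed the threshold (limma adjusted p = 0.123 and 0.131), and FOSL1 passed.

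At day 6 all 3 genes were still higher, when 9.55% of tested genes were called higher and 1.76% lower. The balance of those shares depends on library scaling: with median ratio scaling, 31.1% of day 6 calls were higher. Libraries of 38.8% of tested genes were all above day 0. FOSL1 had a mean of 28.3 ± 13.9 FPKM after 6 days and 0.453 ± 0.251 FPKM in uncultured slices (SD, n = 3 each), for a log2 difference of 4.21 ± 0.49 (adjusted p = 0.00106, limma). JUNB had a mean of 267 ± 39.99 FPKM after 6 days and 29.6 ± 20.4 FPKM in uncultured slices, for a log2 difference of 3.36 ± 0.49 (adjusted p = 0.00318, limma). MYC had a mean of 109 ± 26.3 FPKM after 6 days and 8.88 ± 7.57 FPKM in uncultured slices, for a log2 difference of 3.78 ± 0.58 (adjusted p = 0.00387, limma). These 3 calls held without each of the 11 libraries in turn, with a highest limma adjusted p of 0.0120 for FOSL1, 0.0259 for JUNB and 0.0277 for MYC.

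At day 10 all 3 genes were again called higher, as were 11.9% of tested genes, with 6.23% lower. Libraries of 25.1% of tested genes were all above day 0. FOSL1 had a mean of 13.5 ± 1.73 FPKM after 10 days and 0.453 ± 0.251 FPKM in uncultured slices, for a log2 difference of 3.32 ± 0.49 (adjusted p = 5.84e-04, limma). JUNB had a mean of 242 ± 16.0 FPKM after 10 days and 29.6 ± 20.4 FPKM in uncultured slices, for a log2 difference of 3.23 ± 0.49 (adjusted p = 7.24e-04, limma). MYC had a mean of 33.3 ± 10.9 FPKM after 10 days and 8.88 ± 7.57 FPKM in uncultured slices, for a log2 difference of 2.09 ± 0.58 (adjusted p = 0.0250, limma). The MYC call ended without any one of the day 10 libraries, at limma adjusted p = 0.0555, 0.0524 and 0.0926 without replicates 1, 2 and 3. It also missed with a count model on the recovered reads (limma voom, log2 fold change 1.54, adjusted p = 0.0520).

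Median ratio scaling of the libraries changed the size of these differences but not their calls. Over all tested genes the median log2 fold change was 0.51 after 2 days, 0.88 after 6 days and 0.51 at day 10 against day 0. With median ratio scaling it was 0.004, 0.12 and 0.07, and 29.3%, 31.1% and 42.3% of all calls were higher. With that scaling FOSL1 was higher by 5.18, 3.45 and 2.96 at days 2, 6 and 10 on the log2 scale, JUNB by 2.09, 2.24 and 2.53 and MYC by 2.56, 2.77 and 1.48. All 9 passed, the highest limma adjusted p being 0.0438, for MYC after 10 days. Without day 0 replicate 2 and day 2 replicate 1, the log2 fold changes were 5.40, 4.21 and 3.33 for FOSL1, 2.18, 2.81 and 2.68 for JUNB and 2.81, 3.13 and 1.43 for MYC. Day 2 replicate 2 then stood alone for its day, so only the size is given for day 2. Those of days 6 and 10 all passed (highest limma adjusted p = 0.0313).

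**Figure D2:**
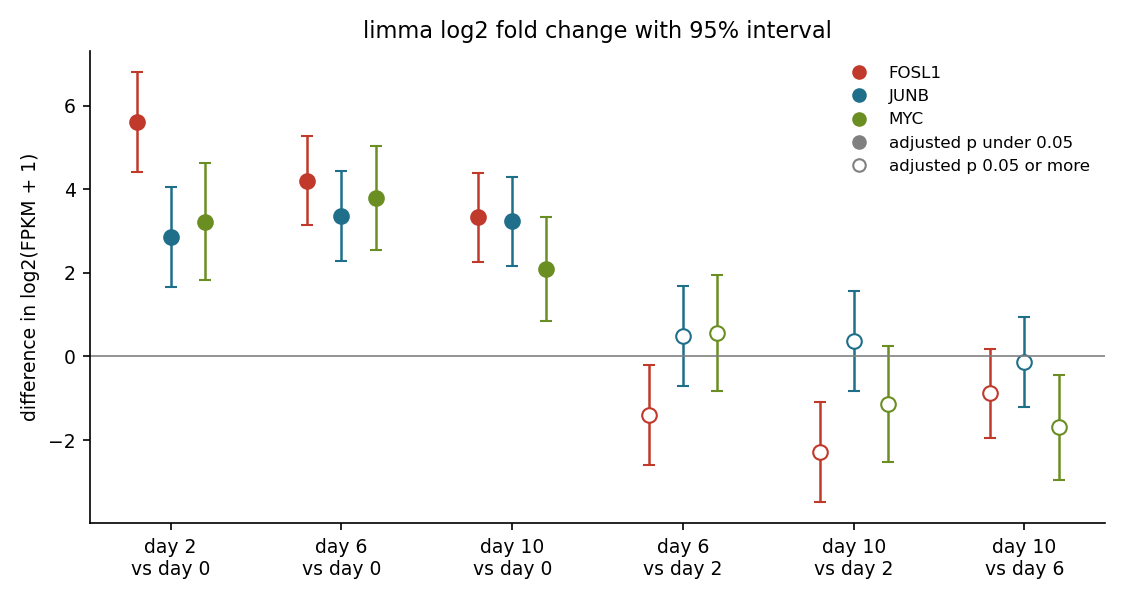
Difference in log2(FPKM + 1) between 2 days for each gene, from the limma fit, with 95% intervals. Filled points passed an adjusted p of 0.05 and open points did not. The 9 comparisons with day 0 passed, from 2.09 for MYC after 10 days to 5.61 for FOSL1 after 2 days, and the 9 between cultured days did not.

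Between cultured days none of the 3 genes passed the test in any of 3 comparisons. On simulated data, this test found 7%, 10% and 16% of 4-fold changes for days 6 against 2, 10 against 2 and 10 against 6. A missed threshold therefore does not show equal levels. The share of all tested genes called was 0.00% for day 6 against day 2, with 511 of 12625 genes at an unadjusted p under 0.05 in limma and 0 called by limma voom. Day 10 against day 2 had 0.665% of genes called, and the comparison of day 10 with day 6 had 4.90%. FOSL1 had a log2 fold change of -1.40 at day 6 against day 2 (95% interval -2.59 to -0.21, limma adjusted p = 0.917) and -2.28 at day 10 against day 2 (-3.47 to -1.09, limma adjusted p = 0.0955). The second of these passed with a pseudocount of 5 (limma adjusted p = 0.0447) and without day 0 replicate 2, which adds only to the estimate of spread (limma adjusted p = 0.0353). Day 10 and day 6 differed for FOSL1 by -0.88 (-1.95 to 0.19, limma adjusted p = 0.337), and their libraries overlapped.

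Day 6 libraries lay wholly below day 2 for FOSL1 and 5.77% of tested genes, and wholly above for JUNB, MYC and 16.0%. Day 10 libraries lay wholly below day 2 for FOSL1, MYC and 13.0% of tested genes, and wholly above for JUNB and 8.82%. These separations are in FPKM. With median ratio scaling, those of FOSL1 and that of MYC between day 10 and day 2 held, MYC at day 6 overlapped day 2, and JUNB at day 6 (150.5 to 255) and day 10 (183 to 272) overlapped day 2 (118 to 245).

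No difference of JUNB between cultured days passed the test. Its log2 fold change was 0.50 at day 6 against day 2 (95% interval -0.70 to 1.70), 0.37 at day 10 against day 2 (-0.83 to 1.57) and -0.13 at day 10 against day 6 (-1.20 to 0.94). The last of these was 0.28 with median ratio scaling and 0.24 with limma voom, so its direction depends on the scaling.

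MYC had a log2 fold change of 0.56 at day 6 against day 2 (95% interval -0.83 to 1.95) and -1.14 at day 10 against day 2 (-2.53 to 0.25). Day 10 against day 6 gave -1.70 ± 0.58 (limma adjusted p = 0.1197), with 33.3 ± 10.9 FPKM after 10 days and 109 ± 26.3 FPKM after 6 days. The day 10 libraries were all below the day 6 libraries, as were those of 27.3% of tested genes. This comparison does not involve either library that stood apart, but they add to the estimate of spread. Without both, or with only day 6 and day 10 libraries in the fit, the same difference passed (limma adjusted p = 0.0114 and 0.0127).

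Ratios between the genes within each library, in which library scaling cancels, gave a test of whether the 3 genes kept step over the 4 groups. That test takes all groups at once, day 0 included, and does not say which days differ. FOSL1 over JUNB was between 0.00780 and 0.0402 in uncultured slices, 0.348 and 0.391 after 2 days, 0.0559 and 0.128 after 6 days, and 0.0502 and 0.0652 after 10 days. The ratio was highest after 2 days in both libraries. Between the 4 groups it differed (exact permutation test over 92400 arrangements of the 11 libraries, p = 0.00143, adjusted over 3 ratios p = 0.00429). FOSL1 over MYC was between 0.0277 and 0.208 in uncultured slices, 0.694 and 1.32 after 2 days, 0.146 and 0.323 after 6 days, and 0.336 and 0.504 after 10 days (exact permutation p = 0.0156, adjusted p = 0.0156). MYC over JUNB was between 0.194 and 0.332 in uncultured slices, 0.297 and 0.502 after 2 days, 0.382 and 0.449 after 6 days, and 0.0995 and 0.194 after 10 days (exact permutation p = 0.0109, adjusted p = 0.0156). For that pair the day 10 libraries were all below the day 6 libraries, with a mean log2 ratio of -2.91 ± 0.50 after 10 days and -1.31 ± 0.13 after 6 days (SD, n = 3 each). All 3 ratios also passed without both libraries that stood apart (adjusted exact p = 0.00238, 0.00238 and 0.00754). The ratios were tested after the levels had been seen.

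**Figure D3:**
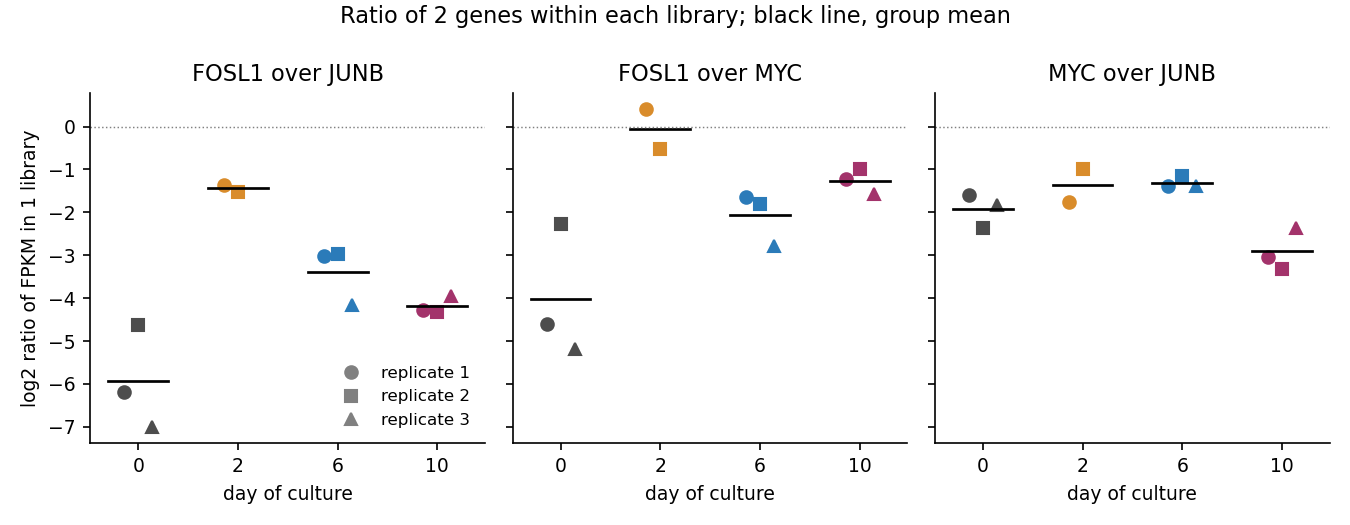
Log2 ratio of FPKM of 2 genes within each library, by day of culture, with the replicate number as the symbol and group means as black lines. FOSL1 over JUNB and FOSL1 over MYC are highest after 2 days, and MYC over JUNB is lowest after 10 days, at -2.91 on average.

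Of 7 listed FOS and JUN family genes, FOS, FOSL1 and JUNB were in the table by symbol, and the other four were not analysed here. FOS (ENSSSCG00000002383), the founding member of the family, did not pass in any comparison. It stood at 16.5, 0.222 and 24.0 FPKM in uncultured slices, 25.1 and 9.42 after 2 days, 78.7, 188 and 15.8 after 6 days, and 3.61, 4.82 and 9.14 after 10 days. Its day 2, day 6 and day 10 groups each overlapped day 0, unlike those of FOSL1 and JUNB. The log2 fold change of FOS was 2.96 ± 1.07 after 6 days (limma adjusted p = 0.0826) and -0.32 ± 1.07 after 10 days (limma adjusted p = 0.865), both against day 0.

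Other leucine zipper factors that can join or compete with AP-1 were counted next, with 5 of 16 listed genes tested. Of these, 2 rose after 2 days, 2 after 6 days and 1 at day 10 against day 0, and none fell. Among all tested genes, 5.76%, 9.55% and 11.9% were called higher. MAFF, a small MAF protein that has no activation domain of its own, had a mean of 140.2 ± 83.6 FPKM after 2 days, 117 ± 79.8 after 6 days and 32.8 ± 2.32 after 10 days, against 7.63 ± 2.32 FPKM in uncultured slices. Its log2 fold changes were 3.93, 3.42 and 2.00 (limma adjusted p = 0.00674, 0.0101 and 0.0484). These calls ended without day 2 replicate 1 (limma adjusted p = 0.0743), without day 6 replicate 1 (0.0748) and in 7 of 11 fits with a library left out for day 10 (highest 0.116). ATF5, a stress-responsive factor, had a mean of 72.6 ± 1.08 FPKM after 2 days and 84.9 ± 36.2 after 6 days, against 13.6 ± 7.07 in uncultured slices (limma adjusted p = 0.0147 and 0.00905). The ATF5 calls ended with median ratio scaling (limma adjusted p = 0.204 and 0.215). The first ended without either day 2 library (highest 0.0883) and the second without day 6 replicate 1 (0.0667).

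The MYC network is the set of proteins that share MAX or its relative MLX as a partner, and 7 of its listed genes other than MYC were tested. None passed after 2 days, 1 rose after 6 days and 1 rose at day 10 against day 0. Among all tested genes, 5.76%, 9.55% and 11.9% were called higher. The median log2 fold change of the 7 genes was 0.25, 0.72 and 0.22, against 0.51, 0.88 and 0.51 over all tested genes. MXD4, which pairs with MAX and represses MYC sites, stood at 97.7, 175 and 139 FPKM after 10 days, against 47.1, 44.5 and 24.0 FPKM in uncultured slices. Its log2 fold change was 1.82 ± 0.45 (limma adjusted p = 0.0136), which missed without day 0 replicate 3 or day 10 replicate 2 (highest limma adjusted p = 0.0608) and with median ratio scaling (1.10, limma adjusted p = 0.296). MXD1, another repressor of this kind, had a mean of 15.2 ± 11.3 FPKM at day 6 against 1.99 ± 1.74 FPKM in uncultured slices (limma adjusted p = 0.0448), a call that held in 3 of 11 fits with a library left out (highest limma adjusted p = 0.125). MLX, the partner of the MLXIP branch, stood between 24.3 and 48.2 FPKM over all libraries and did not pass. Over all libraries MXD3 lay between 2.64 and 25.9 FPKM, MXI1 between 0.688 and 11.5, MLXIP between 0.42 and 10.8 and MGA between 0 and 4.64, and none of these was called against day 0.

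The relative MYCN, a MYC gene of embryonic and neural cells, stood between 0 and 3.499 FPKM over all libraries. It was below the mean FPKM needed for testing. MAX, MNT, MYCL and MLXIPL were not analysed here.

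The AP-1 target list was compiled from textbook targets in human and mouse cells. Of 11 tested members, 8 rose after 2 days, 10 after 6 days and 9 at day 10 against day 0, and none fell. Over all tested genes, 5.76%, 9.55% and 11.9% were called higher, with a median log2 fold change of 0.51, 0.88 and 0.51. The median log2 fold change of the members was 3.64, 3.77 and 3.00. MMP1 and IL6 had 0 reads in every day 0 library. With both set to the bound given by 3 reads over that group, the median was 4.57, 3.79 and 3.76. That bound leaves out the added 1 FPKM that the other members keep, so these last medians mix unlike scales. MMP9, a gelatinase, stood at 1.23, 0.0945 and 0.0970 FPKM in uncultured slices, 406 and 246 after 2 days, 154, 116 and 27.2 after 6 days and 578, 281 and 73.9 after 10 days. PLAU, the protease urokinase, had a mean of 136 ± 73.1 FPKM after 2 days, 91.8 ± 20.0 after 6 days and 75.2 ± 26.7 after 10 days, against 5.09 ± 3.36 in uncultured slices. Calls for MMP9 and PLAU at each day held without each of the 11 libraries in turn, with a highest limma adjusted p of 0.0206. The count after 6 days was 5 without day 6 replicate 1 and 6 with median ratio scaling. Over all tested genes 117 and 864 were then called in either direction, against 1428 in the main fit. The count after 2 days was 2 with only the compared groups in the fit. Over all tested genes 58 were then called, against 1124 in the main fit.

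MYC target genes were mostly higher as well, from a list of nucleolar, translation and metabolic genes known as MYC targets in human and mouse. Of 20 tested members, 12 rose after 2 days, 16 after 6 days and 11 at day 10 against day 0, and none fell. The shares of all tested genes called higher were 5.76%, 9.55% and 11.9%. The median log2 fold change of the members was 2.65, 2.19 and 1.75, against 0.51, 0.88 and 0.51 over all tested genes. ODC1, the first enzyme of polyamine synthesis, stood at 20.3, 18.4 and 18.8 FPKM in uncultured slices, 379 and 283 after 2 days, 506, 337 and 266 after 6 days, and 145, 49.0 and 61.1 after 10 days. It was 1 of 2 members called between day 10 and day 6, where 2.99% of tested genes were lower and 1.91% higher, with a log2 difference of -2.22 ± 0.47 (adjusted p = 0.0155, limma). That call ended without day 6 replicate 1 or 2 or day 10 replicate 2 or 3 (highest limma adjusted p = 0.0880) and with median ratio scaling (0.150). LDHA, which turns pyruvate into lactate, was the other, and it had a mean of 1658 ± 511 FPKM after 10 days and 184 ± 52.3 after 6 days (log2 fold change 3.16 ± 0.55, limma adjusted p = 0.00553). The day 10 call of ODC1 against day 0 ended without day 10 replicate 1 (limma adjusted p = 0.054). Calls of LDHA against day 0 ended without either day 2 library after 2 days and in 9 of 11 fits after 6 days (highest limma adjusted p = 0.18). Its call after 10 days (log2 fold change 5.06, limma adjusted p = 6.16e-05) held without each of the 11 libraries in turn. EIF4A1, the helicase of translation initiation, had a mean of 595 ± 3.66 FPKM after 2 days, 450.3 ± 60.3 after 6 days and 414 ± 135 after 10 days, against 58.6 ± 14.6 in uncultured slices.

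Counts in the MYC target list depended on single libraries, as did those over all tested genes. At day 2 the count was lower without either day 2 library, where the other stood alone. At day 6 it was 2, 10 and 5 without replicates 1, 2 and 3. Over all tested genes 117, 570 and 358 were then called in either direction, against 1428 with all libraries. After 10 days it was 2 without replicate 1 and 5 without replicate 3. Over all tested genes 1530 and 1531 were then called, against 2295 with all libraries. With median ratio scaling it was 5 after 6 days and 5 after 10 days, with 864 and 2155 of all tested genes called. With limma voom it was 3 and 4, with 650 and 1928 of all tested genes called.

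**Figure D4:**
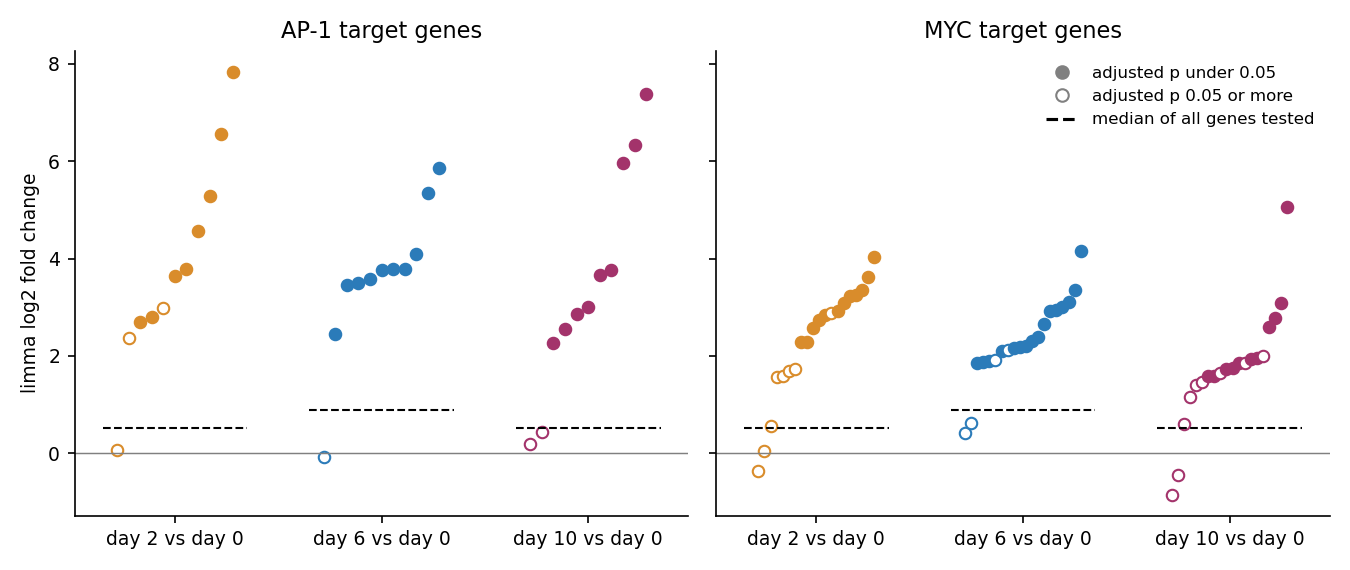
Limma log2 fold change against day 0 of each tested gene in the AP-1 target list (11 genes) and the MYC target list (20 genes), sorted within each comparison. Filled points passed an adjusted p of 0.05, and dashed lines are the median over all 12625 tested genes. Most members of both lists lie above that median at each day.

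Immediate early genes other than the AP-1 and MYC families were counted next. Of 14 tested genes, 1 rose after 2 days, 3 after 6 days and 0 at day 10 against day 0 in limma. Over all tested genes the shares called higher were 5.76%, 9.55% and 11.9%. The median log2 fold change of the 14 genes after 10 days was -0.01, against 0.51 over all tested genes. IER3, a growth factor-induced survival gene, had a mean of 251 ± 113 FPKM after 2 days and 309 ± 149 after 6 days, against 39.9 ± 6.55 in uncultured slices (limma adjusted p = 0.0155 and 0.00872). Those calls ended without day 2 replicate 1 (0.12) and without day 6 replicate 1 (0.0686). GADD45B, a stress-induced growth arrest gene, stood at 123, 869 and 94.3 FPKM at day 6 against 19.9, 11.3 and 10.4 in uncultured slices (log2 fold change 3.93 ± 0.72, limma adjusted p = 0.00899). EGR3, a zinc finger factor, had a mean of 4.52 ± 4.08 FPKM at day 6 against 0.295 ± 0.258 in uncultured slices (limma adjusted p = 0.0358), a call that held in 4 of 11 fits with a library left out (highest 0.0939).

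Genes around the ERK kinase pathway, which drives FOSL1 and MYC in many cells, were counted too. Of 7 tested ERK feedback genes, 2 rose after 2 days, 3 after 6 days and 1 at day 10 against day 0. Called higher over all tested genes were 5.76%, 9.55% and 11.9%. IER3 is in this list and in that of immediate early genes, and is counted in both. ETV4, an ETS factor, stood at 0.897, 0.443 and 0.524 FPKM in uncultured slices, 4.53 and 12.4 after 2 days, 5.15, 5.79 and 3.38 after 6 days, and 10.8, 19.1 and 31.0 after 10 days. The calls of ETV4 after 2 and 6 days ended without some libraries (highest limma adjusted p = 0.215 and 0.174). At day 10 its log2 fold change was 3.61 ± 0.54 (limma adjusted p = 5.94e-04). DUSP4, a phosphatase that turns ERK off, had a mean of 9.07 ± 2.55 FPKM at day 6 against 0.989 ± 0.859 in uncultured slices (limma adjusted p = 0.0218), which missed without day 6 replicate 1 or 3 (highest 0.118).

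Of 4 tested genes for ligands and receptors of the EGF family, 0 passed after 2 days in limma, 1 rose after 6 days and 1 after 10 days. By comparison, 5.76%, 9.55% and 11.9% of all tested genes were called higher. HBEGF, which is also in the AP-1 target list, stood at 32.2, 186 and 10.7 FPKM after 6 days, against 4.09, 0.425 and 2.86 in uncultured slices (limma adjusted p = 0.0188), and missed without day 6 replicate 1 or 2 (highest 0.0831). AREG, which encodes amphiregulin, stood at 1064, 117 and 47.4 FPKM after 10 days, against 0.835, 0.132 and 0.102 after 6 days and 0.0592, 0 and 0.151 in uncultured slices. The log2 fold change of AREG was 7.42 ± 0.86 against day 0 (limma adjusted p = 9.45e-05) and 7.11 ± 0.86 against day 6 (limma adjusted p = 4.22e-04). The day 6 and day 0 libraries held 2 to 17 and 0 to 3 AREG reads.

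Genes for MYC turnover and cofactors and for the cell cycle closed the lists. The shares of all tested genes called higher were again 5.76%, 9.55% and 11.9% at days 2, 6 and 10 against day 0. Of 9 tested genes for turnover and cofactors, 1 rose after 2 days, 1 after 6 days and 0 after 10 days in limma. That was RUVBL1, a helicase of MYC cofactor complexes, with 53.1 ± 2.90 FPKM after 2 days and 49.1 ± 13.3 after 6 days, against 13.0 ± 7.72 in uncultured slices, and its calls held in 1 and 5 of 11 fits with a library left out (highest limma adjusted p = 0.178 and 0.160). Of 8 tested cell cycle genes, 0 passed after 2 days in limma, 2 rose after 6 days (MCM2 and CCNE1) and 2 after 10 days (CCNB1 and CCNB2). MCM2, a replication helicase subunit, had a mean of 24.3 ± 5.21 FPKM at day 6 against 4.72 ± 2.17 in uncultured slices (limma adjusted p = 0.0361, highest 0.154 with a library left out). CCNE1, a cyclin of the start of replication, had a mean of 11.1 ± 6.61 FPKM at day 6 against 1.41 ± 0.843 in uncultured slices (limma adjusted p = 0.0308, highest 0.109). CCNB1, a mitotic cyclin, stood at 65.8, 6.75 and 29.7 FPKM at day 10 against 2.42, 0.296 and 2.62 in uncultured slices (limma adjusted p = 0.0299, highest 0.119). The call of CCNB2 held in 3 of 11 fits with a library left out (highest limma adjusted p = 0.161).

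Among the genes named from these lists, median ratio scaling also ended the calls against day 0 of MAFF after 6 and 10 days (limma adjusted p = 0.0801 and 0.259), MXD1 (0.0895), ODC1 after 10 days (0.23), and LDHA and EIF4A1 after 6 days (0.398 and 0.0741). It ended those of IER3 (0.217 and 0.198), GADD45B (0.0673), EGR3 (0.103), ETV4 after 6 days (0.137) and HBEGF (0.0507). It ended those of MMP1 after 6 days (0.0741), RUVBL1 (0.0963 and 0.216), MCM2 (0.219) and CCNE1 (0.0929) as well. Without both libraries that stood apart, calls against day 0 ended for MAFF after 10 days (limma adjusted p = 0.0536), LDHA after 6 days (0.0707) and RUVBL1 after 6 days (0.0520). The day 2 calls of IER3, RUVBL1, MMP1 and IL6 ended as well, with day 2 replicate 2 alone for its day.

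By Pearson's r of log2(FPKM + 1) over the 11 libraries, and among 5609 other genes with a symbol and a mean of at least 5 FPKM, CLCF1, PLEKHO1, SQSTM1 and CNRIP1 were most like FOSL1 (r = 0.977, 0.975, 0.975 and 0.974, Spearman's rho 0.945, 0.936, 0.891 and 0.973). CD44, a hyaluronan receptor that is also in the AP-1 target list, was most like JUNB (r = 0.981, rho 0.718), followed by PEDS1, SLC39A1 and GEM (r = 0.967, 0.965 and 0.964, rho 0.773, 0.518 and 0.618). TAF5L, AGO2, AKIRIN2 and STX11 were most like MYC (r = 0.987, 0.986, 0.981 and 0.978, rho 0.982, 0.973, 0.982 and 1). These are descriptions over 11 points that share 4 groups and their libraries' depth, and 8.59%, 16.2% and 20.8% of the candidates had r above 0.8 with FOSL1, JUNB and MYC. Among themselves, r was 0.848 for FOSL1 and JUNB, 0.869 for FOSL1 and MYC and 0.9 for JUNB and MYC. Spearman's rho for these pairs was lower, at 0.536, 0.764 and 0.718.

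Marker sums of other cell types are given by day. Endothelial markers (7 of 10 listed genes in the table) summed to between 191 and 709.9 FPKM in uncultured slices, 1068 and 2597 after 2 days, 995 and 2351 after 6 days, and 354 and 1272 after 10 days. Fibroblast markers (7 of 10) summed to between 328 and 1904 FPKM in uncultured slices, 399.6 and 428 after 2 days, 297 and 585 after 6 days, and 1952 and 8725 after 10 days. Smooth muscle and pericyte markers (7 of 8) lay between 97.8 and 459.9 FPKM up to day 6 and between 2287 and 3117 after 10 days. Macrophage markers (7 of 10) summed to between 223 and 843 FPKM in uncultured slices, 118 and 733 after 2 days, 159.7 and 351 after 6 days, and 29.5 and 699 after 10 days. The part of differences in these sums in the levels of FOSL1, JUNB and MYC was not tested.

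Of the neutrophil list (1 of 6 in the table), S100A8 lay between 0 and 0.236 FPKM in uncultured slices, 3.45 and 32.7 after 2 days, 3.23 and 8.30 after 6 days, and 3.21 and 235 after 10 days. Lymphocyte markers (5 of 8) summed to between 4.51 and 34.6 FPKM over all libraries, and CD3D was at 0 in all day 10 libraries. Epicardial and mesothelial markers (4 of 8) summed to between 10.1 and 17.8 FPKM in uncultured slices, 32.0 and 60.6 after 2 days, 24.4 and 217 after 6 days, and 7.32 and 13.8 after 10 days.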

How the data were processed

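Per the labels' protocols, Trizol was used to extract total RNA and TruSeq RNA kits to prepare libraries. FPKM per gene and library is the unit that the authors deposited. Bowtie 0.12.2 and the mouse build mm8 appear in the submitters' processing notes without a stated role, although the IDs are pig Ensembl IDs. No coordinates are printed, since the sources used here name no annotation or counting tool. Symbols came from a table of gene names, which matched 9686 of 16319 IDs. Reads shared between close relatives could be split or lost by the counting.

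Whole reads were recovered from the FPKM steps for all 16073 genes above 0, within a tolerance of 0.01. A gene whose reads share a divisor comes out too low, so library totals are lower limits. Counting intervals and floors would cover counting error only.

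The 12625 genes averaging 1 FPKM or more were tested on log2(FPKM + 1) with limma 3.58.1 in R 4.3.3 (4 groups in 1 fit, eBayes with trend, 7 residual and 5.89 prior degrees of freedom). Tests were two-sided, with Benjamini-Hochberg adjustment over all tested genes within each of 6 comparisons. The same steps were first tested on simulated data. There, 12%, 29% and 35% of 4-fold changes were found at days 2, 6 and 10 against day 0. Between cultured days it was 7% (day 6 against day 2), 10% (day 10 against day 2) and 16% (day 10 against day 6). Of 8-fold changes, 37% to 69% were found, and 2% to 6.59% of calls were false. The simulation changed only a small set of well-expressed genes, fewer than were called in the data against day 0. Its noise was independent between genes and libraries and was drawn once per comparison, so these rates need not be those of the data.

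FOSL1, JUNB, MYC and 10 gene lists were chosen with earlier results of these data known. The naming rule took the 3 genes, family members past the test, up to 3 members with the smallest p per further list, and the 4 genes most like each of the 3. Some genes that the rule takes are not reported here. Ratios within libraries were added after the data were seen. FOS, ATF3, EGR1, IL6, MMP1, MLX, MYCN and CCNB2 were named after their values were seen. Alternatives were pseudocounts of 0.1 and 5, no filter, a filter at 5 FPKM, median ratio scaling, fits of the compared groups alone, a replicate block, limma voom on recovered reads with trimmed mean scaling, and leaving out libraries.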

Additional observations from a re-analysis of the deposited data

How the results depend on the processing

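Among recomputed differences of FOSL1, JUNB and MYC, 344 kept direction and side of the threshold, 9 lost and 5 gained the threshold, and 2 turned. The JUNB day 10 minus day 6 difference turned to 0.28 under median ratio scaling and to 0.24 under limma voom. With only the compared groups fitted, JUNB and MYC at day 2 (2.86 and 3.22) and MYC at day 10 (2.09) no longer passed against day 0, while MYC at day 10 passed against day 6 (-1.70), as it did without both libraries that stood apart (-1.70). Limma voom took MYC at day 10 against day 0 to 1.54, and a pseudocount of 5 took FOSL1 at day 10 against day 2 to -2.01. Leaving out 1 library at a time gave 2.31 to 3.37 (JUNB) and 2.57 to 3.83 (MYC) at day 2 and 1.43 to 2.69 (MYC) at day 10, all against day 0. It gave -2.49 to -2.07 for FOSL1 at day 10 against day 2 and -1.95 to -1.51 for MYC at day 10 against day 6.

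Counts of genes called moved further. At day 2 against day 0 the count was 58 with only the compared groups and 365 to 1762 with a library left out. At day 6 it was 942 (pseudocount 0.1), 864 (median ratio), 524 (compared groups), 650 (limma voom) and 117 to 1522 with a library left out. At day 10 it was 1382 (compared groups), 3449 (without both libraries) and 1462 to 2705 with a library left out. Day 6 against day 2 gave 4 without both libraries and 0 to 2 with a library left out. Day 10 against day 2 gave 50 (limma voom) and 11 to 238 with a library left out. Day 10 against day 6 gave 2034 (compared groups), 2559 (without both libraries) and 270 to 1553 with a library left out. Median ratio scaling gave 29.3%, 31.1% and 42.3% of calls as higher at days 2, 6 and 10 against day 0.

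With the replicate block, day 10 against day 2 gave 53 genes, and no call of FOSL1, JUNB or MYC changed. The block ended printed calls of MXD1, EGR3, ETV4 and CCNE1 at day 6 (adjusted p = 0.0610, 0.0559, 0.0681 and 0.0509, limma) and CCNB2 at day 10 (0.0684), all against day 0. Replicate numbers were not shown to pair libraries. Residuals of the 15 same-numbered pairs correlated from -0.552 to 0.469, and 9 of the 15 were above 0.1. Pairs with unlike numbers were not compared, so these values cannot decide whether the numbers pair libraries. The cause of these changes was not tested. Reads of FOSL1 in uncultured slices (12 to 35) limit the size of its fold change.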

Other observations

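At day 6, FOSL1, JUNB and MYC were each highest in replicate 2 and lowest in replicate 3. Some early response genes, picked after their values were seen, had the same order and others did not. IER3 stood at 410, 379 and 138 FPKM in replicates 1, 2 and 3, with replicate 1 highest. EGR3 stood at 2.16, 9.23 and 2.18, with replicate 2 highest and replicates 1 and 3 nearly equal (38 and 37 reads). FOS stood at 78.7, 188 and 15.8 FPKM in replicates 1, 2 and 3, EGR1 at 139, 363 and 54.4, ATF3 at 261, 319.9 and 33.8, MAFF at 151, 175 and 26.3, and HBEGF at 32.2, 186 and 10.7. At day 10 the values were 3.61 to 9.14 FPKM for FOS, 2.74 to 17.9 for EGR1, 8.08 to 15.6 for ATF3, 30.1 to 34.2 for MAFF and 1.89 to 4.04 for HBEGF. ATF3, which encodes a stress-induced repressor of the AP-1 group, averaged 12.6 ± 3.97 FPKM at day 10 and 205 ± 151 at day 6, for a log2 difference of -3.45 ± 0.73 (adjusted p = 0.0162, limma). That call ended without day 6 replicate 1 or 2 or day 10 replicate 2 (highest limma adjusted p = 0.0853). JUNB lay between 231 and 261 FPKM at day 10.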
